A study of Homo sapiens with 24 samples.

Results

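The 44 interferon-stimulated genes described here are a fixed list of genes that cells switch on after an interferon signal, and they were found by gene symbol among the 58051 gene identifiers of the RNA-seq data. All 44 were matched. Interferons are secreted proteins that bind receptors on the cell surface. Type I interferons (IFN-α and IFN-β) and type III interferons (IFN-λ) act through receptor-bound JAK kinases on STAT2, which with IRF9 is part of a transcription factor complex that binds the interferon-stimulated response element of its target genes, whereas IFN-γ acts mainly through the gamma-activated site. The products of the target genes sense viral RNA, stop its translation, block entry or release of particles, and feed back on the pathway itself, and epithelial cells of the intestine are known to respond to type III interferons in particular.

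RNA was sequenced from the colorectal cancer (CRC) cell lines HT29, HCT116 and SW480. Each line gave 2 clones that kept the parental CTNNB1 sequence after CRISPR/Cas9 exposure (WT) and 2 clones with a CTNNB1 knock-out (KO). The paper reports inactivating APC mutations in HT29 and SW480 and gain-of-function CTNNB1 mutations in HCT116, so WT means unedited. It states that these mutations activate the WNT/β-CATENIN pathway independently of growth factors. In the KO clones both CTNNB1 alleles, which encode β-CATENIN, had lost 1 exon after CRISPR/Cas9 editing, which shifts the reading frame. The clones were WT 11, WT 40, KO 28 and KO 38 of HT29, WT 4, WT 6, KO 44 and KO 47 of HCT116, and WT 4, WT 5, KO 17 and KO 21 of SW480, and each was sequenced in rounds A and B, which gives 24 libraries. All cells grew in the same serum-containing medium, and the labels name no interferon treatment. The rounds are described in the study as independent biological replicates. Each group holds only 2 clones, and the p-values between KO and WT measure the spread between 4 libraries of these. Where single clones are compared with each other or with the WT clones, the p-values measure the spread between the rounds of a clone. The difference between the 2 WT clones does not enter that spread, so such a call compares those clones and not the genotypes. A feature of 1 clone and an effect of the KO cannot be told apart within a clone. The study asked how gene expression depends on β-CATENIN in each CRC cell line.

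The libraries held 22297049 to 29068378 reads on genes. CTNNB1 transcripts stood at 4.98% of the WT mean in the HT29 KO clones, at 1.83% in HCT116 and at 2.18% in SW480, and no KO library reached a WT library. One library stood apart: KO 47A of HCT116 had reads in 35449 identifiers, while the other 23 libraries had reads in 20256 to 24944. The epithelial keratin genes KRT8 and KRT18 were high in all 24 libraries, whereas KRT20, VIL1 and LGALS4 were at 104 normalised reads or below in HCT116 and SW480, CDX2 was at 19.9 or below in HT29 and CDH1 was at 85.9 or below in SW480. The summed level of 5 fibroblast markers was 13.2 to 23 in HT29 WT and 109 to 1210.3 in HT29 KO libraries, mostly LUM, with 3 of the 5 at the floor in KO. In SW480 the sum of 3 endothelial markers was 10.6 to 27.4 in WT and 118 to 234 in KO, mostly VWF, and that of 5 myeloid markers was 35.2 to 53.6 in WT and 182 to 269 in KO, mostly CD14. In HT29 the myeloid sum was 23404.5 to 27681.9 in WT and 17725.5 to 31458.2 in KO, mostly LYZ. The myeloid marker ITGAM had 1.25 to 8.64 in HT29 WT, 188 and 236 in KO 28 and 75.9 and 67.4 in KO 38. The markers PTPRC of leukocytes, CD68 and AIF1 of macrophages and CDH5 of endothelium had at most 4 reads in any library. LYZ, CD14, ITGAM and VWF, which are on the same lists, had more in some libraries. In bulk samples fewer cells of a type and less RNA per cell cannot be told apart.

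All values below are normalised read counts, which are reads per gene divided by the size factor of the library, so they compare libraries and not genes. Log2 fold changes are differences of log2(normalised read count + 1) and are given ± standard error (SE), with adjusted p-values from limma. A gene was called higher or lower when its adjusted p was below 0.05 and its log2 fold change exceeded 1 in size.

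The promoters of the members were searched for the letters these factors are known to bind, which describes the sequence and shows no binding. RefSeq (GRCh38.p14) gave a window from 250 bases before to 50 bases after the start for 35 members. IRF7, USP18, IFIT2, IFITM2, OAS2, OASL, MX2, GBP2 and TRIM22 were not matched. The core of the interferon-stimulated response element, searched on either strand as 2 copies of GAAA with any 2 bases between them, was present for 25 of the 35 members (71.4%) and for 4.38% of 27305 genes with windows of the same length. The gamma-activated site, TTCNNNGAA on either strand, was present for 11 of the 35 members (31.4%) and for 9.38% of all genes, and 8 windows of members held both motifs. CTTTGAT, a motif of the TCF/LEF factors that recruit β-CATENIN, was found on either strand for 0 of the 35 members and for 3.18% of all genes. Below are the 200 bases before the start of 5 members, 5′ to 3′ on the strand of the gene, with the response element core in capitals. ISG15, IFIT1 and GBP1 are shown because they were higher in HT29 KO 28 than in WT and rose in SW480 KO cells, and IFI27 and IFITM1 because they fell in SW480 KO cells while both KO 28 libraries of HT29 were far above WT.
ISG15 (chr1:1013297-1013496, + strand): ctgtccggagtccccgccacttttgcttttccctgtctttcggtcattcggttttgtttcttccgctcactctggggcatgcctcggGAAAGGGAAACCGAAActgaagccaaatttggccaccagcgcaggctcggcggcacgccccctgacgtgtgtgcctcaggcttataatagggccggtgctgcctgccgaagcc
IFIT1 (chr10:89392423-89392622, + strand): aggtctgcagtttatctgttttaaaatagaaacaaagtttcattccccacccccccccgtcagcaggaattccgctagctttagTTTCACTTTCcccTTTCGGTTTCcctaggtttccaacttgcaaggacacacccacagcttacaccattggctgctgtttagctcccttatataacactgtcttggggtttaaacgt
GBP1 (chr1:89065209-89065408, - strand): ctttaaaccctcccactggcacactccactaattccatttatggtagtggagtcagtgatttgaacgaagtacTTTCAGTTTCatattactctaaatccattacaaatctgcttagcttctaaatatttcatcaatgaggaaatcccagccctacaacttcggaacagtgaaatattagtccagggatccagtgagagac
IFI27 (chr14:94110536-94110735, + strand): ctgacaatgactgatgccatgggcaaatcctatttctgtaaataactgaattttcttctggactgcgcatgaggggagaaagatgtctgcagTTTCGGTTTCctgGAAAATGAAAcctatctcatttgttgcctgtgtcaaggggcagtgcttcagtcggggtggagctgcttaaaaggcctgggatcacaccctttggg
IFITM1 (chr11:313840-314039, + strand): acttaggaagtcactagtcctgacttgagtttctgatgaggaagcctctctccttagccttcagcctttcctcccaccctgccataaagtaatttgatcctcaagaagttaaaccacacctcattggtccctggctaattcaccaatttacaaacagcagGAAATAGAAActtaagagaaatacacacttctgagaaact
ISG15 has 2 overlapping cores that begin 113 and 107 bases before the start. IFIT1 has 2 that begin 116 and 103 bases before the start, and IFI27 has 2 at 108 and 95 bases. GBP1 and IFITM1 have 1 each, at 127 and 40 bases. Among members with a window the core was present for 14 of 21 that were higher in SW480 KO cells, for both of those that were lower, and for 6 of 7 that were not called.

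Several members are neighbours in the genome. In GRCh37, the build of the deposited counts, IFIT2, IFIT3, IFIT1 and IFIT5 lie in this order between positions 91043451 and 91181362 of chromosome 10. OAS1, OAS3 and OAS2 lie between positions 113343661 and 113449528 of chromosome 12. MX2 and MX1 adjoin on chromosome 21, as do SAMD9 and SAMD9L on chromosome 7, and PARP9 and DTX3L start head to head on chromosome 3. The library kit does not record strand, so reads from bases shared with a gene on the other strand cannot be told apart. Bases shared with exons of other genes, on either strand, made up 38.3% of the exonic length of XAF1, 22.9% of IRF1 and 8.0% of CMPK2, which overlaps RSAD2. IFITM1, IFITM2 and IFITM3 are close paralogs, and how shared reads were split between them is uncertain.

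**Figure D1:**
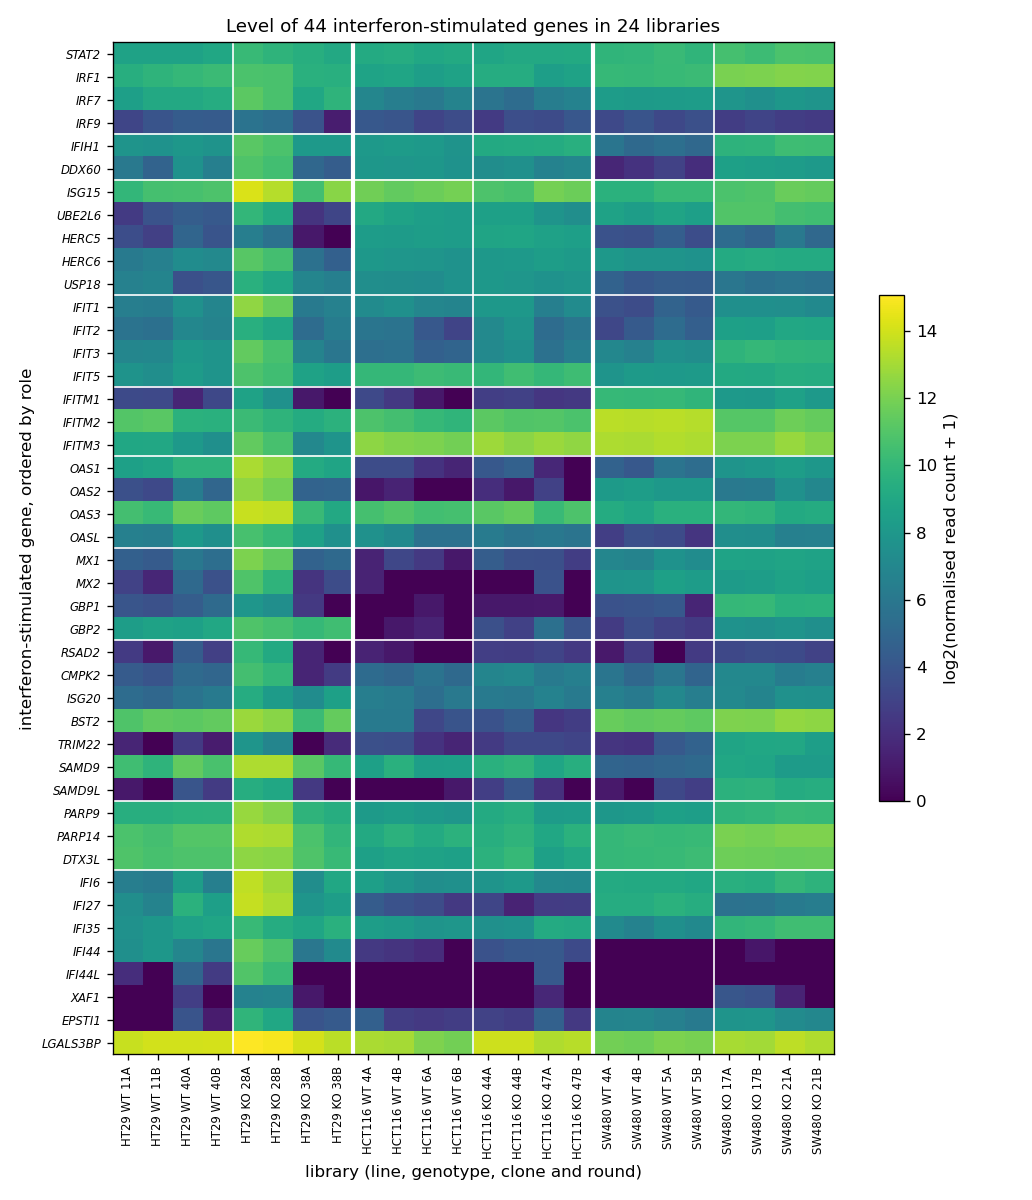
Level of each of the 44 interferon-stimulated genes (rows, grouped by role) in each of the 24 libraries (columns), as log2(normalised read count + 1) on a colour scale. The KO 28A and KO 28B columns of HT29 are the brightest of that line, and the SW480 KO columns are brighter than the SW480 WT columns for most but not all genes.

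The WT clones of the 3 lines differed in which members they expressed. The WT mean was highest in HT29 for 20 members, in SW480 for 15 and in HCT116 for 9. For 9, 9 and 4 of these, respectively, the WT libraries of that line did not overlap with those of the next line. The same counts were not made over all genes, so whether the members differ from other genes in this was not tested. Per kilobase of transcript, LGALS3BP, a secreted galectin-binding protein, was the highest member in WT HT29 cells at 7361 normalised reads per kb. IFITM3, which blocks the entry of viruses at the membrane, was the highest in WT HCT116 cells at 7536 and in WT SW480 cells at 15627 per kb. Other members were at the detection floor of 3 reads or below: GBP1 and XAF1 in all 8 HCT116 libraries, and IFI44 and IFI44L in all 8 SW480 libraries. Of the 44 members, 38 passed the filter on low values in HT29, 30 in HCT116 and 39 in SW480, and a gene that was high in 1 group only passed through that group.

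In HT29 cells the members split the KO clones apart. KO 28 was higher than KO 38 in 33 of 38 tested members and lower in 0, while 6.66% of all 14921 genes tested were higher and 5.89% were lower. The median log2 fold change of the members was 3.23, and that of all genes was 0.02. The same 2 KO 28 libraries compared with the 4 WT libraries gave 34 of 38 members higher and 0 lower (all genes, 6.09% and 2.45%). KO 38, which was compared with the same WT libraries, gave 4 members higher and 7 lower (all genes, 8.91% and 4.8%), and WT 11 compared with WT 40 gave 2 higher and 3 lower (all genes, 4.34% and 3.24%). The WT clones nevertheless differed mostly in 1 direction: the log2 fold change of WT 11 against WT 40 was negative in 34 of 38 members with a median of -0.86 (all genes, -0.00363), and 19 had an unadjusted p below 0.05. Both KO 28 libraries lay above the other 6 HT29 libraries in 41 of the 44 members. They did so in 35 of the 38 tested members and in 12.2% of all genes tested. They lay above all other 22 libraries, those of the other lines included, in 30 of the 44 members and in 5.13% of all genes. The members at which KO 28 did not stand above the rest of HT29 were IFITM2, ISG20 and IFI35. That KO 28 and KO 38 differ was known from earlier results on these data, so these counts describe the extent of the difference.

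Of the 4 transcription factors of the pathway, IRF7, IRF1 and IRF9 were higher in KO 28 than in KO 38. IRF7, which amplifies the interferon response, had 2437 and 1722 normalised reads in KO 28A and KO 28B. The other HT29 libraries had 366 to 644 in WT and 498 and 892 in KO 38, so KO 28 stood clear of both (KO 28 and KO 38, 1.62 ± 0.34, adjusted p = 0.0172). IRF1 had 1761 and 1728 in KO 28, 738 and 719.5 in KO 38 and 679, 867, 1047 and 1218 in WT (1.26 ± 0.19, adjusted p = 0.00435). STAT2 had 1133 and 875 in KO 28 and 698 and 549.7 in KO 38, a difference that did not pass the test (0.68 ± 0.22, adjusted p = 0.0742), and 401 to 494 in WT, against which KO 28 passed (1.22 ± 0.19, adjusted p = 0.00544). IRF9 was low throughout, with 51.3 and 42.1 in KO 28, 13.3 and 1.30 in KO 38 and 7.68 to 19.8 in WT (3.05 ± 0.79, adjusted p = 0.038).

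The RNA sensors and the ISG15 system differed by larger factors. IFIH1, the helicase MDA5 that detects long double-stranded RNA, had 2377 and 1782 in KO 28, 270.3 and 279 in KO 38 and 218, 202, 248 and 215 in the WT libraries, so KO 38 and WT lay close together while KO 28 was 7.47-fold above KO 38 (2.90 ± 0.21, adjusted p = 1.44e-04). The helicase DDX60 had 1884 and 1457 in KO 28 and 31.3 and 20.7 in KO 38 (5.97 ± 0.53, adjusted p = 3.42e-04). ISG15, a ubiquitin-like protein that is attached to other proteins, had 18626 and 10482 in KO 28, 1457 and 5335 in KO 38 and 991, 1546, 1606 and 1846 in WT. KO 38B thus stood between WT and KO 28 for ISG15, while KO 38A lay within the WT range (2.32 ± 0.56, adjusted p = 0.03). UBE2L6, the enzyme that conjugates ISG15, was low in the rest of HT29, with 984 and 572 in KO 28, 3.79 and 7.78 in KO 38 and 4.80, 13.2, 20.7 and 17.5 in WT (6.86 ± 0.54, adjusted p = 2.14e-04). The ligases HERC5 and HERC6 were also higher in KO 28 (HERC5, 5.53 ± 0.61, and HERC6, 5.72 ± 0.38). USP18, which removes ISG15 and dampens the receptor, had 760.4 and 487 in KO 28 and 116 and 89.5 in KO 38 (2.57 ± 0.31, adjusted p = 0.00146). Its WT clones differed from each other: WT 11 had 95.1 and 109 and WT 40 had 11.9 and 15 (2.84 ± 0.31, adjusted p = 0.00122).

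All 4 members of the IFIT family, whose products bind foreign RNA and block its translation, were higher in KO 28. IFIT1 had 5959 and 3051 normalised reads in KO 28A and KO 28B, 69.2 and 95.9 in KO 38 and 84.5, 79.1, 198 and 116 in WT, so KO 28 lay far above both other groups (5.69 ± 0.38, adjusted p = 1.07e-04). IFIT2 (3.42 ± 0.37), IFIT3 (4.76 ± 0.34) and IFIT5 (2.10 ± 0.25) followed. All 4 OAS genes, which encode sensors of double-stranded RNA and their relative OASL, were higher as well. OAS2 had 5960.5 and 3854 in KO 28, 26.6 and 28.5 in KO 38 and 11.5, 9.12, 80.0 and 30.1 in WT. That is 168-fold between the KO clones (7.39 ± 0.45, adjusted p = 8.37e-05), and WT 40 stood above WT 11 (-2.16 ± 0.45, adjusted p = 0.0254). OAS1 (3.82 ± 0.25), OAS3 (4.05 ± 0.36) and OASL (2.29 ± 0.39) differed less, with OAS3 reaching 14328 and 12293 in KO 28.

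Among the GTPases, MX1 had 4264 and 2691 in KO 28, 25.6 and 35 in KO 38 and 24, 19.3, 63.2 and 42.6 in WT (6.77 ± 0.34, adjusted p = 2.86e-05). MX2 had 1911 and 893 in KO 28 and at most 34.6 elsewhere in HT29 (7.47 ± 0.71, adjusted p = 5.06e-04). GBP1, known for its induction by IFN-γ, had 239 and 175 in KO 28, 4.74 and 0 in KO 38 and 14.4, 12.2, 20.7 and 36.3 in WT (6.42 ± 0.76, adjusted p = 0.00137). GBP2 behaved otherwise: it had 1905 and 1580.3 in KO 28 and 1077 and 1412 in KO 38, which did not differ beyond the test (0.49 ± 0.25, adjusted p = 0.209), and both clones lay above all WT libraries (330.3, 405, 370.5 and 527). The IFITM family was split too. IFITM3 had 2812 and 1659.5 in KO 28 and 129 and 217 in KO 38 (3.68 ± 0.35, adjusted p = 5.06e-04), whereas IFITM2 had 1230.1 and 877 in KO 28, 602 and 822 in KO 38 and 2083, 2341, 793 and 757 in WT and was not called (0.56 ± 0.24, adjusted p = 0.142). Here WT 11 was the highest clone.

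Of the other effectors, CMPK2, a mitochondrial nucleotide kinase encoded next to RSAD2, had the largest difference between the KO clones among the 38 members tested, with 1489.6 and 987 in KO 28, 1.90 and 5.19 in KO 38 and 19.2, 14.2, 35.6 and 30.1 in WT (8.16 ± 0.44, adjusted p = 4.28e-05). BST2, or tetherin, which holds budding particles at the cell surface, had 7219 and 5423 in KO 28 and 1246 and 2839 in KO 38 (1.73 ± 0.37, adjusted p = 0.0192). PARP9, PARP14 and DTX3L, which act together in ADP-ribosylation, were all higher in KO 28 (PARP9, 2.91 ± 0.22, PARP14, 2.88 ± 0.28, and DTX3L, 1.91 ± 0.26). The membrane protein IFI6 had 12359.5 and 7802 in KO 28, 168 and 507 in KO 38 and 86.4, 74, 332 and 88.9 in WT (5.07 ± 0.67, adjusted p = 0.00237). IFI27 had 13386 and 9304 in KO 28, 227 and 331 in KO 38 and 171, 107, 791 and 356 in WT (5.34 ± 0.42, adjusted p = 2.13e-04). LGALS3BP, already high in WT, had 33994 and 29453 in KO 28 and 17340.2 and 11335 in KO 38 (1.17 ± 0.24, adjusted p = 0.0156). EPSTI1 was at 0, 0, 13.8 and 1.25 in WT and 14.2 and 18.2 in KO 38 but at 903 and 507 in KO 28 (5.31 ± 0.81, adjusted p = 0.00449).

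IFITM1, RSAD2, TRIM22, SAMD9L, IFI44L and XAF1 did not pass the filter in HT29, since fewer than 4 libraries reached a value of 10. IFI44L had 2025 and 1199.6 in KO 28 and 0 reads in KO 38, and was at least 479-fold higher against a floor of 3 reads per KO 38 library. RSAD2, known as viperin, had 1103 and 573 in KO 28 and 1.90 and 0 in KO 38. IFITM1 had 413 and 192 in KO 28 and 0.949 and 0 in KO 38. With the filter relaxed to any gene with a read, all 6 were called higher in KO 28, with log2 fold changes from 6.27 for XAF1 to 10.61 for IFI44L that depend on the pseudocount. All 6 were at or near the floor in KO 38, with at most 5 reads in a library. Their calls were thus close to fixed in advance and add no support to the count above.

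The KO 28 rounds were not equal. The value was higher in round A than in round B for 42 of the 44 members, and the median ratio of A to B was 1.504, whereas the median ratio over all genes of this clone was 1.01. In the other 11 clones the median ratio over the members ran from 0.879 to 1.16. In KO 38 the rounds differed most over all genes (SD of the log2 ratio 0.806, and 0.267 to 0.443 in the other 11 clones). KO 38B had more ISG15 and IFI6 than KO 38A but fewer reads of OAS3 and PARP14. Without KO 28A, 25 members were called between the KO clones, and without KO 28B 27 were, all higher in KO 28.

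**Figure D2:**
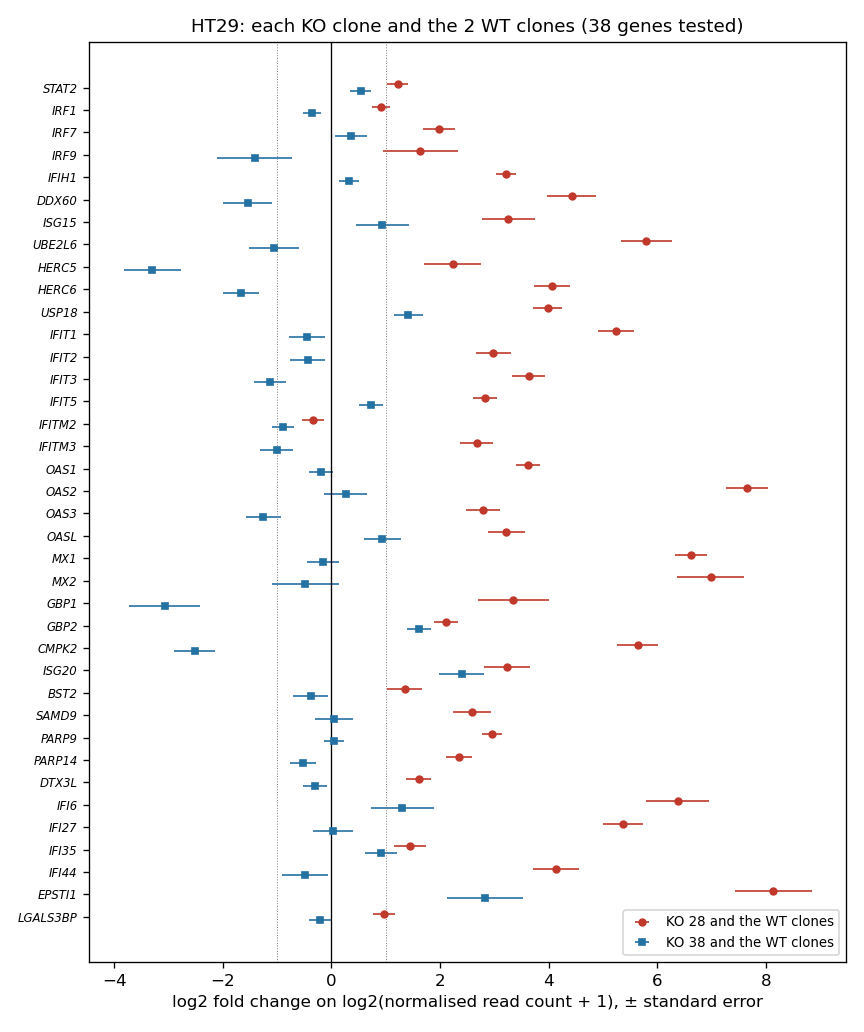
Log2 fold change ± SE of the 38 members tested in HT29, for KO 28 (circles) and KO 38 (squares), each compared with the same 4 WT libraries; dotted lines mark a change of 1. The circles lie right of the dotted line for all but 3 genes, IRF1, IFITM2 and LGALS3BP, and the squares lie on both sides of 0.

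KO 38 taken alone was no uniform counterpart. Compared with the WT clones it was lower for HERC5 (-3.30 ± 0.53, adjusted p = 0.00461), GBP1 (-3.07 ± 0.66), CMPK2 (-2.52 ± 0.38), HERC6 (-1.66 ± 0.33), DDX60 (-1.54 ± 0.45), OAS3 (-1.25 ± 0.31) and IFIT3 (-1.13 ± 0.30). It was higher for ISG20, an RNA exonuclease (2.40 ± 0.42, adjusted p = 0.00714), GBP2 (1.61 ± 0.22), USP18 (1.42 ± 0.27) and EPSTI1 (2.83 ± 0.71). HERC5 and GBP1 had 0.949 and 0 and 4.74 and 0 normalised reads in KO 38A and KO 38B, at or near the floor. The count of 11 ranged from 6 without WT 11A to 15 without KO 38A.

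With both KO clones of HT29 pooled against WT, 2 of 38 members were called higher and 0 lower (all genes, 1.9% and 0.402%). These were GBP2, with 1905, 1580.3, 1077 and 1412 in the KO libraries and 330.3, 405, 370.5 and 527 in WT (1.86 ± 0.22, adjusted p = 0.00389), and ISG20, with 643, 303, 159 and 379.9 in KO and 38.4, 31.4, 52.4 and 70.2 in WT (2.82 ± 0.43, adjusted p = 0.014). In both, every KO library lay above every WT library, which was so for 6 of 38 tested members and for 8.31% of all genes. The log2 fold change was positive for 36 of the 38 members with a median of 1.47, and the SE reached 1.97. IFIT1, for instance, gave 2.40 ± 1.39, adjusted p = 0.422, and OAS2 gave 3.96 ± 1.85, adjusted p = 0.33. Without KO 38 the count of higher members was 30, without KO 28 it was 2, and DESeq2 on the recovered reads called 20 with both clones. Summing the rounds of each clone left 0 members called by limma. Over the 8 libraries 12 members had an unadjusted p below 0.05.

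In SW480 most members changed, and they did so in both KO clones. Of 39 tested members 26 were higher and 4 were lower in KO than in WT (all genes, 10.7% and 6.76%), with a median log2 fold change of 1.43 and a median over all 16325 genes of -0.00419. Every KO library lay above every WT library in 30 members and below in 6, which was so for 25.3% and 20.9% of all genes. KO 17 compared with the WT clones gave 26 higher and 5 lower (all genes, 10.4% and 7.6%), and KO 21 compared with the same WT clones gave 28 higher and 3 lower (all genes, 12.1% and 7.61%). Between KO 17 and KO 21 1 member was called (OAS2, lower in KO 17, with 1.78% of all genes higher and 2.83% lower), and between WT 4 and WT 5 4 members were called, all lower in WT 4 (all genes, 0.613% higher and 1.36% lower). Leaving out any library left 28 to 30 members called and leaving out any clone 27 to 31. The other alternatives gave 23 to 32.

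Several of the largest changes in SW480 were in genes that its WT cells hardly expressed. SAMD9L, an antiviral factor, had 1.01, 0, 8.69 and 5.87 in WT and 824, 849, 602 and 665 in KO (7.74 ± 0.63, adjusted p = 6.51e-06). Its neighbour SAMD9 had 28.3, 25.7, 29.9 and 34.3 in WT and 500.4, 456, 308 and 310.1 in KO (3.66 ± 0.19, adjusted p = 1.75e-07). GBP1 had 13.1, 13.8, 16.4 and 1.96 in WT and 1046, 1095, 760.1 and 796 in KO (6.49 ± 0.50, adjusted p = 4.49e-06). GBP2 likewise rose from 5.05, 11, 6.76 and 4.89 to 205, 183, 221 and 181 (4.71 ± 0.25, adjusted p = 1.82e-07), so neither GTPase had an overlap between WT and KO. TRIM22, an antiviral ubiquitin ligase, had 4.04, 3.68, 17.4 and 25.4 in WT and 449.6, 495, 517 and 344 in KO (5.43 ± 0.53, adjusted p = 2.22e-05). For SAMD9L and TRIM22 the WT 4 libraries were below the WT 5 libraries (SAMD9L, -2.52 ± 0.32, adjusted p = 8.63e-05).

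Both RNA sensors rose in SW480 KO cells. DDX60 had 2.02, 3.68, 6.76 and 2.94 in WT and 372, 351, 315 and 281 in KO (6.17 ± 0.28, adjusted p = 6.53e-08), and IFIH1 had 55.6, 34, 43.4 and 32.3 in WT and 849, 893, 1333 and 1253 in KO (4.68 ± 0.21, adjusted p = 5.51e-08). The IFIT family rose as a whole. IFIT2 had 8.09, 18.4, 38.6 and 22.5 in WT and 375, 359, 521 and 472 in KO (4.41 ± 0.38, adjusted p = 7.38e-06), IFIT1 had 12.1, 10.1, 27 and 18.6 and 178, 177, 176 and 138 (3.31 ± 0.28, adjusted p = 5.24e-06), and IFIT3 (2.76 ± 0.19) and IFIT5 (1.17 ± 0.12) changed less. All 5 genes of the ISG15 system rose moderately. ISG15 itself had 789, 771, 1149 and 1113 in WT and 1754, 1884, 3119 and 2936 in KO (1.32 ± 0.21, adjusted p = 6.91e-04), and UBE2L6 had 399, 332, 437 and 357 and 2031, 2023, 1501 and 1411 (2.18 ± 0.14, adjusted p = 7.18e-07). USP18 (1.32 ± 0.20), HERC5 (1.42 ± 0.32) and HERC6 (1.43 ± 0.09) were similar in size. PARP9 (1.70 ± 0.14), PARP14 (1.93 ± 0.07) and DTX3L (1.51 ± 0.08) rose together, as they did in HT29 KO 28.

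Of the transcription factors, IRF1 rose in SW480 KO cells, from 1095, 1044, 1124 and 1225 in WT to 4145, 4342, 4888 and 4713 in KO (2.01 ± 0.08, adjusted p = 1.96e-08). STAT2 had 935, 947, 1178 and 926 in WT and 1564, 1291, 1799 and 1674 in KO, and its adjusted p passed but its size did not (0.66 ± 0.12, adjusted p = 8.71e-04). IRF7 was lower by a small amount, 313, 296, 309 and 319 in WT and 228, 187, 247 and 225 in KO (-0.49 ± 0.11, adjusted p = 0.00416). IRF9 was not tested, with 8.69 to 13.8 in WT and 4.80 to 7.34 in KO. IFI35, a protein that pairs with NMI, rose from 146, 102, 179 and 142 to 974, 1051, 1394 and 1365 (3.08 ± 0.18, adjusted p = 3.53e-07), and LGALS3BP from 3667, 3336, 4409 and 4079 to 8513, 8149.9, 11946 and 9855 (1.30 ± 0.13, adjusted p = 1.61e-05).

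In SW480 KO cells 4 members fell. IFI27, a small mitochondrial protein, had 647, 637, 788 and 652 in WT and 49.9, 51.4, 73.8 and 80.6 in KO, without overlap (-3.42 ± 0.17, adjusted p = 1.27e-07). IFITM2 had 11749, 11149, 11544 and 10462 in WT and 2137, 2177, 3376 and 2854 in KO (-2.12 ± 0.14, adjusted p = 8.61e-07). IFITM1 had 1066, 1037, 1105 and 923 in WT and 279, 259.6, 393 and 273 in KO (-1.79 ± 0.13, adjusted p = 1.88e-06). The third gene of this family, IFITM3, had 9501, 9030.1, 10195 and 9467 in WT and 4253, 4311, 6841 and 4976 in KO, which was just short of the size required for a call (-0.93 ± 0.14, adjusted p = 2.84e-04). OAS2 had 297, 329, 258 and 264 in WT and 65.8, 69.7, 195 and 127 in KO (-1.46 ± 0.31, adjusted p = 0.00335), and the KO clones differed, KO 21 being higher (-1.20 ± 0.19, adjusted p = 1.76e-04). Summing the rounds of each clone ended the OAS2 call (adjusted p = 0.0599). Its neighbours on chromosome 12 did otherwise: OAS1 rose from 25.3, 16.5, 54.1 and 40.1 to 216, 245, 329 and 246 (3.01 ± 0.32, adjusted p = 3.12e-05) and OAS3 had 622, 489, 758 and 754 in WT and 990.5, 906, 573 and 614 in KO (0.22 ± 0.20, adjusted p = 0.407). OASL rose from 6.06, 11.9, 9.65 and 3.91 to 174, 162, 93.4 and 97 (3.94 ± 0.34, adjusted p = 6.71e-06). MX1 and MX2 were split too, with 1.55 ± 0.19, adjusted p = 7.82e-05 for MX1 and 0.33 ± 0.18, adjusted p = 0.144 for MX2.

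In HCT116 cells few members changed. Of 30 tested members 4 were higher and 0 lower in KO (all genes, 3.17% and 1.89%), and the median log2 fold change was 0.28. IFIH1 had 266, 307, 278 and 214 in WT and 558, 589.7, 603 and 726 in KO, without overlap (1.22 ± 0.15, adjusted p = 3.34e-04). CMPK2 had 37.6, 30.6, 52.7 and 34.3 in WT and 113, 130.0, 68.5 and 88.5 in KO, again without overlap (1.33 ± 0.26, adjusted p = 0.00673). Every KO library of HCT116 lay above every WT library in 5 of 30 tested members and in 10.9% of all genes. Every KO library lay below every WT library in 1 tested member, the RNA sensor DDX60, and in 9.61% of all genes. The adjusted p of DDX60 passed but its size did not (-0.74 ± 0.21, adjusted p = 0.0345). IFIT3 had 44, 47.3, 24 and 27.6 in WT and 133, 182, 48.2 and 80.9 in KO (2.82-fold, adjusted p = 0.0273), where KO 44 was above KO 47 (1.30 ± 0.31, adjusted p = 0.0344). LGALS3BP had 9094, 8265, 4599 and 3744 in WT and 15257, 15085, 9899 and 11151 in KO (1.07 ± 0.29, adjusted p = 0.0387), where WT 4 was above WT 6 (1.06 ± 0.13, adjusted p = 0.00189). The rounds pair the HCT116 libraries, and with the round as a block LGALS3BP was no longer called (adjusted p = 0.0748), which left 3 members. Without KO 47A the count was 4 as well. KO 44 compared with WT gave 7 higher and 0 lower (all genes, 5.08% and 3.41%), and KO 47 compared with the same WT libraries gave 3 higher and 2 lower (all genes, 3.64% and 2.32%). Without WT 6A, WT 6B, KO 44A or KO 44B 2 members were called, without clone KO 47 7 were, and with the rounds summed 1 was.

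Other HCT116 members differed between clones of the same genotype. KO 44 was higher than KO 47 for 6 members and lower for 2 (all genes, 1.67% and 1.62%). OAS1 had 16.7 and 24.5 in KO 44 and 2.14 and 0 in KO 47, and 10.1, 10.2, 3.70 and 1.90 in WT (3.58 ± 0.68, adjusted p = 0.0116). IFIT2 had 134 and 209 in KO 44 and 38.5 and 58 in KO 47 (1.80 ± 0.40, adjusted p = 0.0228), and its WT clones also differed, 57.8 and 52.9 in WT 4 and 16.6 and 7.62 in WT 6 (2.19 ± 0.40, adjusted p = 0.0182). The 2 members higher in KO 47 were IFI35 (-1.51 ± 0.16, adjusted p = 3.62e-04) and ISG15 (-1.05 ± 0.15, adjusted p = 0.00272). WT 4 was above WT 6 in 4 members and below in 0 (all genes, 0.734% and 0.708%), which were BST2 (2.58 ± 0.44), IFIT2, OASL (1.75 ± 0.27) and LGALS3BP. The count between KO 44 and KO 47 ranged from 1 without KO 44B to 9, and that between the WT clones was 0 without WT 4A or without WT 6B. KO 47A alone held 6 reads of OAS2, 12 of MX2 and 16 of IFI44L, for which the other HCT116 libraries had at most 3, 2 and 0, and whether these reads belong to the unusual breadth of this library was not tested.

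**Figure D3:**
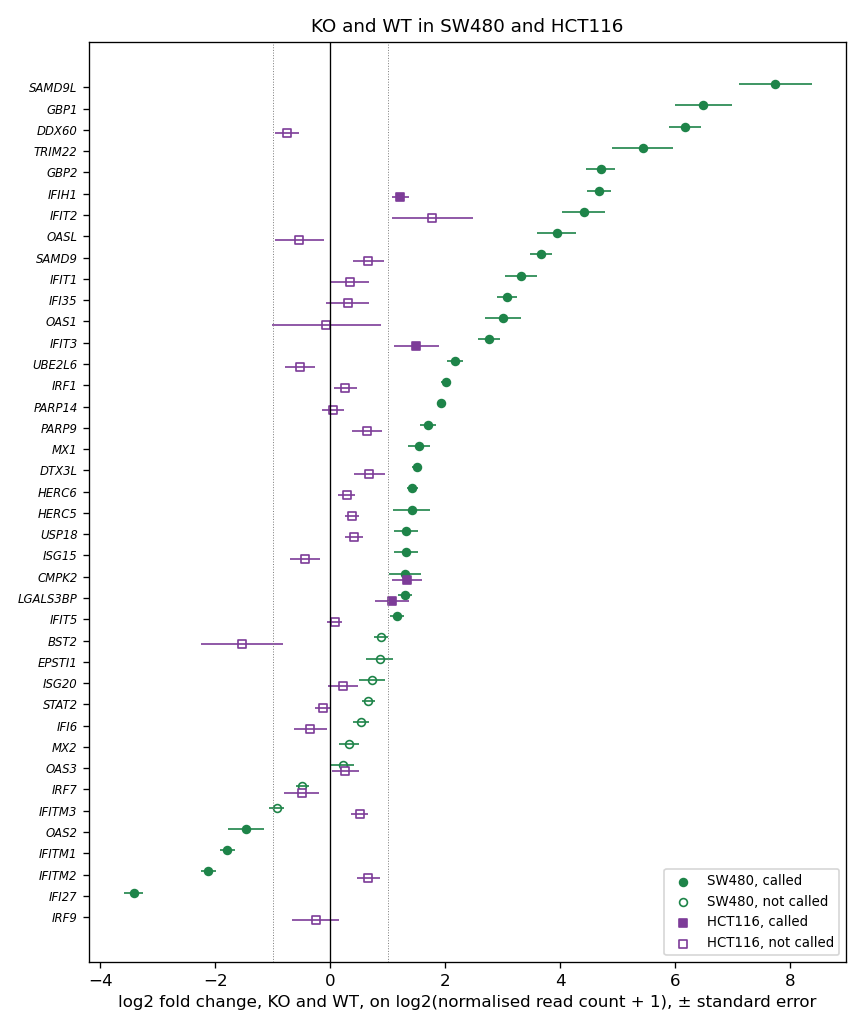
Log2 fold change ± SE between KO and WT in SW480 (circles) and HCT116 (squares), ordered by the SW480 value; filled symbols were called and open symbols were not, and dotted lines mark a change of 1. In SW480 the values run from 7.74 for SAMD9L to -3.42 for IFI27, while in HCT116 only IFIH1, IFIT3, CMPK2 and LGALS3BP are filled.

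HT29 KO 28 and the SW480 KO clones share no control, so their calls can be set side by side. Of the 34 members higher in KO 28 than in WT HT29 cells, 22 were also among the 26 higher in SW480 KO cells, 9 were not called there, 2 were lower and 1 was not tested. Of all 39 members tested in SW480, whatever their call in KO 28, 66.7% were higher (all genes, 10.7%). The share was about the same among the members that were higher in KO 28 and tested in SW480. The overlap is therefore not read as more than that share, and it was not tested. The 22 include both RNA sensors, all 5 genes of the ISG15 system, all 4 IFIT genes, OAS1, OASL, MX1, GBP1, GBP2, PARP9, PARP14 and DTX3L. The 2 with opposite directions were OAS2 and IFI27. Among tested members OAS2 had the second largest log2 fold change of KO 28 against WT (7.66) after EPSTI1 (8.14), and it fell by 1.46 in SW480. STAT2, IRF7, IFITM3, OAS3, MX2, ISG20, BST2, IFI6 and EPSTI1 were the 9 higher in KO 28 and not called in SW480. IRF1 and LGALS3BP were higher in SW480 and not called in KO 28 against WT, where they gave 0.91 ± 0.17, adjusted p = 0.0107 and 0.97 ± 0.21, adjusted p = 0.0205.

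**Figure D4:**
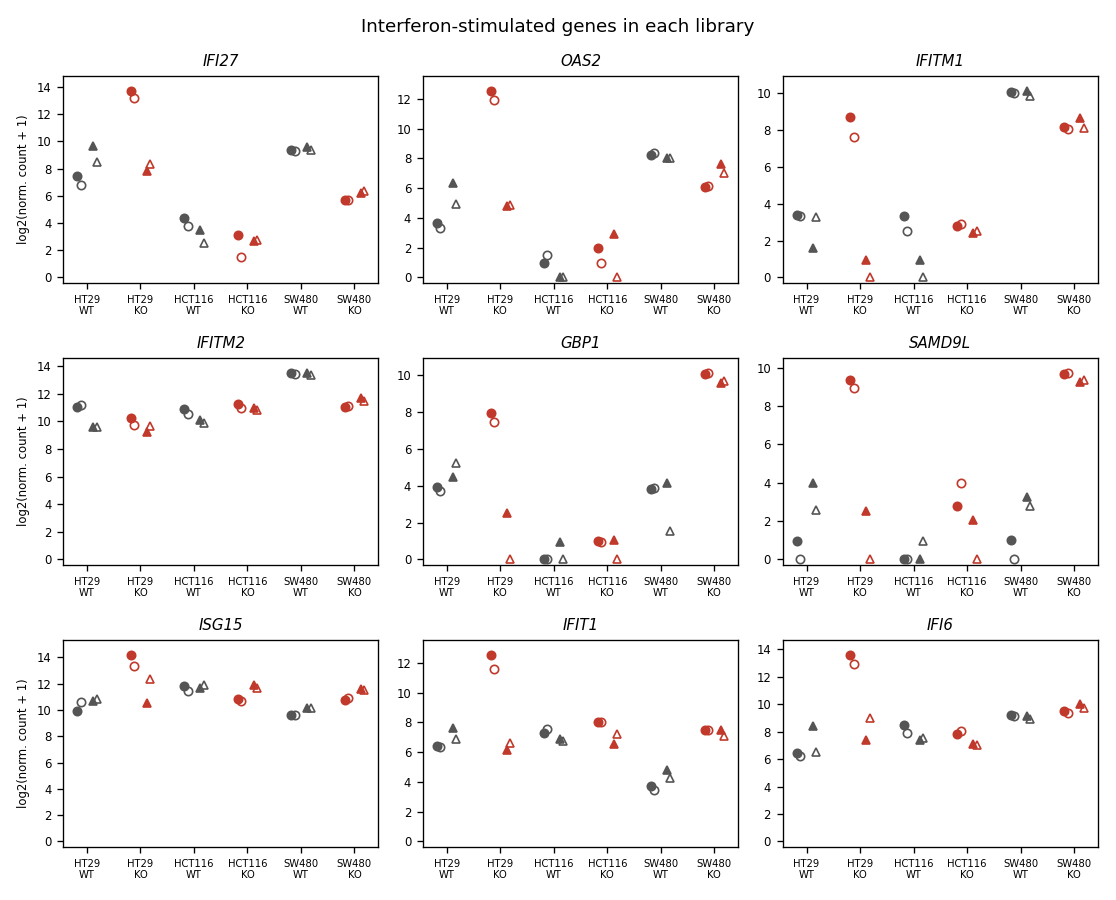
Values of 9 members in every library, as log2(normalised read count + 1); grey marks WT and red marks KO, circles the clone with the lower number and triangles the other, filled symbols round A and open symbols round B. IFI27, OAS2 and IFITM1 are high in HT29 KO 28 (red circles) and lower in SW480 KO than in SW480 WT. GBP1, SAMD9L and IFIT1 are above the WT libraries of the same line in both HT29 KO 28 and SW480 KO.

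The difference of the KO effect between lines was tested in 1 fit over all 24 libraries. It was larger in HT29 than in HCT116 for 8 of 44 members and smaller for 0 (all genes, 3.19% and 2.2%), with EPSTI1 (5.40 ± 1.46, adjusted p = 0.026) and IFI6 (4.19 ± 1.23, adjusted p = 0.0407) at the top. Between HT29 and SW480 it was larger in HT29 for 6 members and larger in SW480 for 7 (all genes, 6.02% and 6.29%). IFI27 (6.12 ± 1.33, adjusted p = 0.00243) and OAS2 (5.42 ± 1.81, adjusted p = 0.0448) were on the side of HT29, and GBP1 (-6.35 ± 1.56, adjusted p = 0.00658) and DDX60 (-4.73 ± 1.41, adjusted p = 0.0244) on that of SW480. Between HCT116 and SW480 8 members had the larger effect in SW480 (all genes 5.5%), led by DDX60 (-6.92 ± 1.41, adjusted p = 0.00166), TRIM22 (-5.16 ± 1.62, adjusted p = 0.0374) and OASL (-4.47 ± 0.78, adjusted p = 3.06e-04), and IFITM2 had the larger value in HCT116 (2.78 ± 0.43, adjusted p = 6.63e-05, all genes 4.52%). GBP1 was at the floor in HCT116, and its difference from SW480 (-5.97 ± 1.56) was not called by edgeR (adjusted p = 0.633). These counts depended on the HT29 KO clones, which also set the common estimate of the spread. Without KO 38 they were 36, 30 and 24 and without KO 28 they were 12, 25 and 23. With the round as a block, IFI6 (adjusted p = 0.0721) was no longer called between HT29 and HCT116, nor were OAS2 between HT29 and SW480 (0.07) and TRIM22 between HCT116 and SW480 (0.0641), and the first count was 4. That count fell to 1 without HT29 WT 11A and also when clone was a random effect.

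The interferon genes themselves were mostly close to the floor. Of 21 interferon genes examined, 1 passed the filter in HT29 (IFNE, an epithelial type I interferon) and 0 in the other lines. IFNB1, which encodes IFN-β, had 6.03 and 8.81 normalised reads in KO 28A and KO 28B, 0.949 and 0 in KO 38 and 0 in the other 20 libraries. The type III genes IFNL1, IFNL2 and IFNL3 had 14.1 and 1.96, 12.1 and 1.96 and 13.1 and 3.91 in KO 28A and KO 28B, respectively, and 0 in both KO 38 libraries. IFNL2 and IFNL3 are near-identical, so their reads may be shared. These are a handful of reads in libraries of 22297049 reads or more, with no replicate beyond the pair. IFNE had 54.3 and 76.3 in KO 28, 1.90 and 15.6 in KO 38 and 19.2, 9.12, 70.1 and 66.4 in WT, so the WT 40 libraries lay within the range of KO 28 while KO 38 was lower (3.24 ± 0.77, adjusted p = 0.0275).

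The receptors were expressed in all lines. Of 11 receptor and JAK-STAT genes 1 (JAK2) rose in SW480 KO cells and 0 fell (all genes, 10.7% and 6.76%), and 0 were called between KO and WT in HT29 or HCT116 by limma (4 and 3, respectively, had an unadjusted p below 0.05). IFNAR2 had 173 and 187 in KO 28 and 85.4 and 35 in KO 38 (1.70 ± 0.39, adjusted p = 0.0251), while IFNAR1 had 957 to 1208 in all 8 HT29 libraries. The IFN-λ receptor gene IFNLR1 had 108 and 95.9 in KO 28 and 136 and 113 in KO 38, with 73.9, 84.1, 38.5 and 43.8 in WT, and was called higher in KO 38 than in WT (1.10 ± 0.23, adjusted p = 0.0132). The kinase gene JAK2 gave 1.06 ± 0.13, adjusted p = 7.12e-05 between KO and WT of SW480.

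Of 15 sensors and adaptors tested in HT29, 7 were higher in KO 28 than in KO 38 and 0 lower (all genes, 6.66% and 5.89%). Between KO and WT 1 of 15 was higher in HT29 (IFI16, all genes 1.9%), 1 of 13 in HCT116 (STING1, 2.83-fold, all genes 3.17%) and 3 of 14 in SW480 (IFI16, TLR3 and RIGI, all genes 10.7%). None was lower, where all genes gave 0.402%, 1.89% and 6.76%. RIGI, the sensor of viral RNA ends, had 2453 and 1637 in KO 28, 256 and 242 in KO 38 and 253, 204, 378 and 318 in WT (8.01-fold between KO 28 and KO 38, adjusted p = 2.65e-04), and rose in SW480 KO cells from 143, 164, 217 and 227 to 648, 642, 855 and 766 (1.96 ± 0.16, adjusted p = 4.71e-06). STING1, the adaptor of DNA sensing, had 25.6 and 36.3 in KO 38 and 713 and 515 in KO 28, on either side of WT (342, 297, 283 and 279), and KO 38 was lower than WT (-3.25 ± 0.23, adjusted p = 9.08e-05). TLR3, an endosomal RNA sensor, followed the same order (4.73 ± 0.66, adjusted p = 0.00293). The DNA sensor IFI16, itself interferon-inducible, was not called between the KO clones of HT29 (-0.72 ± 0.63, adjusted p = 0.446). It had 0.96, 1.01, 2.96 and 0 in HT29 WT, 144 and 106 in KO 28 and 207 and 199.7 in KO 38 (6.32 ± 0.47, adjusted p = 3.52e-04, KO and WT). In SW480 it had 4.04, 4.59, 8.69 and 7.83 in WT and 2073, 2051, 1376 and 1391 in KO (7.91 ± 0.25, adjusted p = 5.56e-09). In HCT116 it did not pass the filter, with at most 7 reads in a library.

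Of 9 inhibitors tested in HT29, PIAS1 was the only one called between KO 28 and KO 38 (1.12 ± 0.28, adjusted p = 0.0351). SOCS1, which blocks JAK kinases, fell in HCT116 KO cells from 181, 124, 76.7 and 64.7 to 31.4, 27.3, 53.5 and 28.5 (-1.57 ± 0.34, adjusted p = 0.0116), and TRIM21 rose in SW480 KO cells (1.52 ± 0.09, adjusted p = 5.19e-07). A further list of 40 interferon-stimulated genes outside the 44 was counted in the same way. Of these, 21 of 32 tested were higher in KO 28 than in KO 38 with a median log2 fold change of 1.52 (6.66% of all genes higher), and 22 of 35 were higher in SW480 KO cells with a median of 1.46 (10.7% of all genes). In HT29 KO cells as a whole 3 of 32 were higher (1.9% of all genes), and in HCT116 KO cells 2 of 29 were (3.17% of all genes). None of the 4 comparisons gave a lower call in this list. The chemokine gene CXCL11 (5.90 ± 0.72), GBP4 (5.67 ± 0.57), the immunoproteasome subunit PSMB9 (5.34 ± 0.46) and APOL6 (3.54 ± 0.29) led between the HT29 KO clones. CXCL11 had 149.9 and 112 in KO 28, 3.79 and 0 in KO 38 and 171, 137, 21.7 and 10.0 in WT, so KO 28 lay within the WT range and was not called against WT (1.40 ± 0.62, adjusted p = 0.222), whereas KO 38 was lower than WT (-4.49 ± 0.62, adjusted p = 0.0023). In SW480 the largest were CASP1 (6.41 ± 0.50), GBP4 (5.67 ± 0.42), RTP4 (5.17 ± 0.44) and SLC15A3 (4.73 ± 0.41). The death ligand gene TNFSF10 rose in the HT29 KO clones (2.76 ± 0.45, adjusted p = 0.0168) and in SW480 KO cells (3.79 ± 0.30, adjusted p = 4.29e-06), and GBP3 rose in HCT116 KO cells, from 7.34, 6.50, 2.77 and 0.952 to 39.3, 43.3, 33.2 and 20.9 (2.88 ± 0.48, adjusted p = 0.00279).

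**Figure D5:**
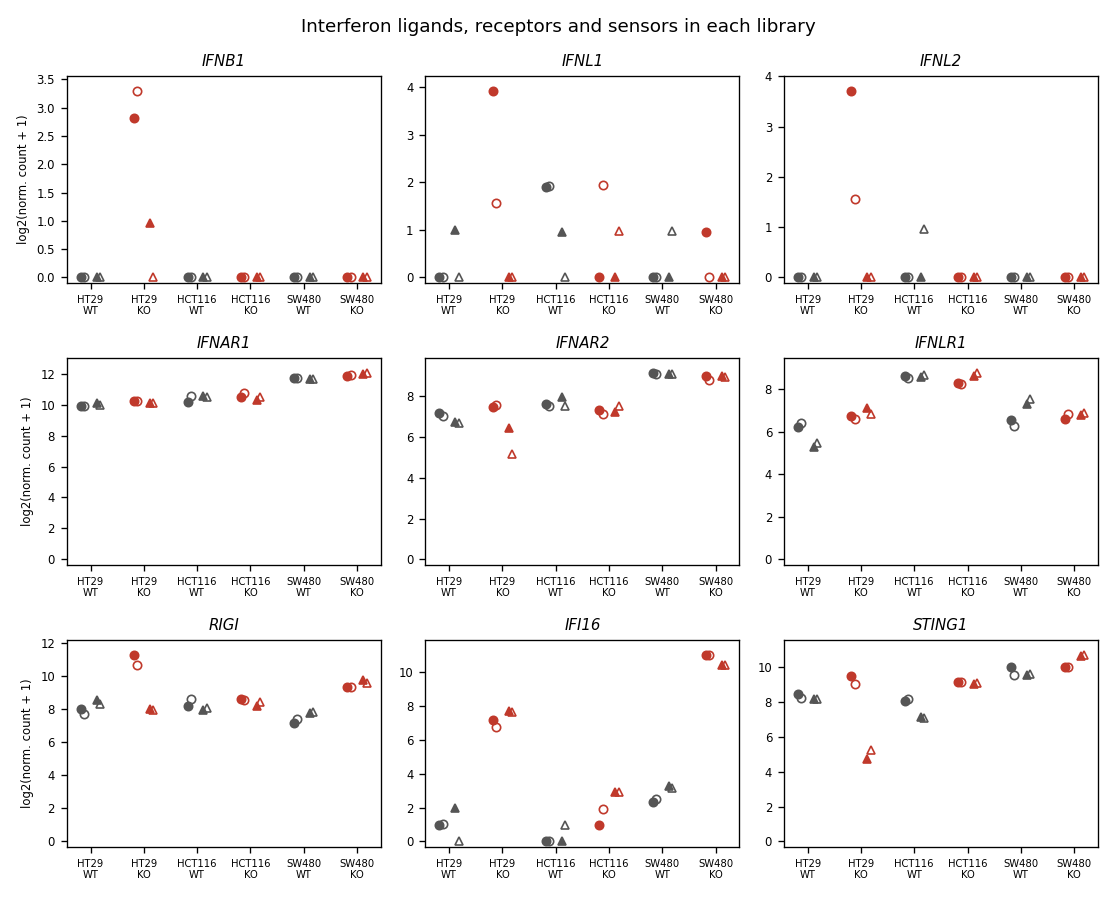
Values of 9 ligand, receptor and sensor genes in every library, as log2(normalised read count + 1), each panel with its own axis; grey marks WT and red marks KO, circles the clone with the lower number and triangles the other, filled symbols round A and open symbols round B. IFNB1 exceeds 3 reads only in the HT29 KO 28 libraries, and IFNL2 only in KO 28A. Within HT29, IFNAR2 and RIGI are highest in KO 28, and IFI16 is high in both HT29 KO clones and in SW480 KO cells.

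The genes whose level over the 24 libraries was most like the mean log2 level of the 44 members were RIGI (Pearson r = 0.901), GBP4 (0.889), PRKCD (0.880) and PARP12 (0.877), among 18565 genes compared. The points share 3 lines and 12 clones, so these values describe likeness over these libraries.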

How the data were processed

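RNA-seq was done on 24 libraries of HT29, HCT116 and SW480 clones from a kit (TruSeq) that does not record strand. The authors aligned reads with STAR 2.7.5b to GRCh37, counted them per gene with featureCounts 2.0.1 and normalised them with DESeq2 (2.11.40.6 in the submitters' processing notes). The deposited values are a signal, counts divided by a size factor per library. Dividing each column by its smallest step gave whole reads for 100% of values. Deposited tables of differentially expressed genes hold the authors' fold changes and p-values and were not used. The members and lists were chosen with earlier results of these data known.

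Genes reaching 10 in 4 or more libraries of a line were fitted with limma 3.58.1 (trend, robust) on log2(value + 1), with the genotype or the clone as the group and Benjamini-Hochberg adjustment over all genes tested (R 4.3.3, Python 3.11.15). A call needed an adjusted p below 0.05 and a log2 fold change above 1 in size. Differences of the KO effect between lines were fitted over all 24 libraries with the same filter applied to these. Alternatives were edgeR 4.0.16 and DESeq2 1.42.0 on the recovered reads, other filters, pseudocounts of 0.1 and 5, the round as a block, the clone as a random effect, summed rounds, and each library or clone left out. The script was tested on simulated data with independent libraries and no difference between clones of a genotype. That test therefore does not cover the spread between clones seen here. The round letters pair the libraries in HCT116, where all 6 pairs of clones had correlated deviations (0.182 to 0.374), but not in HT29 (2 of 6 above 0.1) or SW480 (1 of 6).

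Members named with values were those called between genotypes or between the HT29 KO clones (at most 10 per comparison, with a mean of at least 50), a fixed example set for each role, and the 5 largest differences between each pair of lines. Of the other lists at most 4 genes per comparison were named. IFIT5, IFI35, IFI44, XAF1, HERC5, IFNB1, IFNL1, IFNL2 and IFNL3 and the genes higher or lower in single clones were named after their values were seen. Precision is limited by counting at low values: 3 reads correspond to 2.75 to 3.89 normalised reads. A gene of the receptor and signalling list is not reported here.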

Additional observations from a re-analysis of the deposited data

Results flagged for a closer look

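In 8 of 196 groups of 4 libraries (4.08%), 1 library stood far from the other 3, and chance alone flags about 1 group in 20. In WT groups these were STAT2 in HT29 WT 40B (494, others 401 to 409.5) and in SW480 WT 5A (1178, others 926 to 947), SAMD9 in HCT116 WT 4B (739, others 341 to 377), IFI6 in HT29 WT 40A (332, others 74.0 to 88.9) and IFI27 in SW480 WT 5A (788, others 637 to 652). In SW480 KO groups they were HERC6 in KO 17B (633, others 593 to 599), IFIT1 in KO 21B (138, others 176 to 178) and IFITM1 in KO 21A (393, others 259.6 to 279). The IFI6 value is 1 of the 4 WT values that entered the comparison of KO effects between HT29 and HCT116.

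The KO effect differed between lines by the interaction test of limma for the members below, given as a difference of log2 fold changes. For HT29 minus HCT116 it was 5.40 for EPSTI1, 4.19 for IFI6, 2.61 for OASL, 2.60 for ISG20 and 2.54 for ISG15. For HT29 minus SW480 it was -6.35 for GBP1, 6.12 for IFI27, 5.42 for OAS2, -4.73 for DDX60 and 4.62 for EPSTI1. For HCT116 minus SW480 it was -6.92 for DDX60, -5.97 for GBP1, -5.16 for TRIM22, -4.47 for OASL and -3.46 for IFIH1. With the round as a block IFI6 (adjusted p = 0.0721) and OASL (0.0644) for HT29 minus HCT116, OAS2 (0.07) for HT29 minus SW480 and TRIM22 (0.0641) for HCT116 minus SW480 were no longer called. The HT29 values average KO 28 and KO 38, which differed from each other in most of these genes.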

How the results depend on the processing

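Of 2357 alternative values for 99 single-gene results, 2140 kept their direction and their side of the threshold, 217 kept the direction but lost the call, and 0 reversed. Of 309 alternative counts of called members, 57 differed by more than 1.5 times. Between KO and WT of HT29 (2 called) DESeq2 gave 20, the clone as a random effect 1 and summed rounds 0, and leaving out a library or clone gave 1 to 30. Between WT 11 and WT 40 of HT29 (5) DESeq2 gave 13, the replicate block gave 8 in limma and 8 in edgeR, and leaving out a library gave 1 to 15 (15 without KO 38A or KO 38B). For KO 38 and WT (11) a filter of at least 10 in every library gave 6, and leaving out a library gave 6 to 15. Without a library the count was 25 to 33 for KO 28 and KO 38 and 26 to 35 for KO 28 and WT. In HCT116, KO and WT (4) gave 8 with any gene above 0 and 1 with summed rounds, and 2 to 7 without a library or clone. KO 44 and KO 47 gave 1 to 9 (1 without KO 44B, 4 without KO 44A or KO 47A) and WT 4 and WT 6 gave 0 to 4, or 2 with the filter on every library. In SW480, KO and WT (30) gave 27 to 31 without a library or clone and 23 to 32 over the other alternatives. KO 17 and KO 21 gave 0 to 1 (0 without KO 21A) and 2 with any gene above 0. WT 4 and WT 5 gave 2 to 5, or 1 with the filter on every library. For the KO effect between lines, HT29 and HCT116 (8) gave 1 with the clone as a random effect, 4 with the replicate block and 1 to 36 without a library or clone, HT29 and SW480 gave 10 to 30, and HCT116 and SW480 gave 8 to 24. The between-line fits without an HT29 KO clone were chosen after seeing the data. The round as a block ended the LGALS3BP call in HCT116 and, between lines, those of IFI6, IRF7, IFIT5 and OASL (HT29 and HCT116), OAS2 (HT29 and SW480) and TRIM22 (HCT116 and SW480). Between KO and WT it left 2 members called in HT29, 3 in HCT116 and 30 in SW480. In each line the KO group holds 2 clones, so the spread between clones rests on few values, and where a library moved a count the cause was not tested. Genes at the floor of 3 reads have folds that depend on the pseudocount.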
